A study of Mus musculus with 4 samples.

Results

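Tubular injury markers are genes that injured or repairing cells of the renal tubule switch on, and several of their protein products are measured in urine or blood. The 9 markers described here are Havcr1, Lcn2, Spp1, Clu, Cd24a, Vim, Akr1b8, Il34 and Cd14. They were taken as every non-control probe that carries 1 of these gene names on an Agilent mouse expression array. That gave 11 probes of the 41142 kept for analysis, for 9 of 21103 named genes. Of the 11 probes, 10 were well above background on all 4 arrays. A second Vim probe was not well above background on any array and is used no further.

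Total RNA of mouse kidney was labelled with the dye Cy3 and hybridised to 4 one-colour arrays, 1 per group. Mice were C57BL/6 animals of 8 weeks, either wild type (WT) or NLRC5-/-, a line lacking a NOD-like receptor that regulates MHC class I genes. In both genotypes a kidney came from a sham operation or from bilateral ischemia for 30 min with later reperfusion. Sample titles and the series design give 48 h of reperfusion and the sample descriptions give 24 h, and the conflict was not resolved. The deleted part of the gene and how many animals gave each sample are not given in the sources used here. The WT sham, NLRC5-/- sham, WT injured and NLRC5-/- injured arrays are listed in that order below. With 1 array per group no difference has a replicate check.

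Ischemia followed by reperfusion strips and kills cells of the proximal tubule, and the survivors lose specialised functions, spread, divide and rebuild the epithelium. During this change they make surface receptors that bind dead cells, secreted proteins that bind iron, matrix or misfolded protein, and signals that reach macrophages. The proteins KIM-1, made from Havcr1, and NGAL, made from Lcn2, are widely used as signs of acute tubular damage.

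The arrays differed in ways other than the labels. Both WT arrays lay on 1 slide and scan and both NLRC5-/- arrays on another, so slide and genotype cannot be told apart, while each comparison of injured with sham lay within a slide. Xist, the RNA that coats and silences an X chromosome in female cells, had a level of 5.24 on the NLRC5-/- sham array and did not clear background on the other 3. The Y-linked genes Ddx3y, Eif2s3y, Kdm5d and Uty failed to clear background there and nowhere else, so that array has a female pattern. The summed level of 4 erythroid markers was 62.8 on the NLRC5-/- sham array against 3.20 to 10.5 on the others, and that of 5 adipocyte markers was 26.5 on the WT sham array against 0.0919 to 0.239. Nlrc5 itself read -4.05, -3.73, -3.30 and -3.58, and since its deleted part is not given this probe does not check the labels. Markers of the proximal tubule, thick ascending limb, collecting duct and podocyte were well above background on all 4 arrays. The WT injured array was the dimmest, with a 75th percentile of 176.6 signal units against 352.6 to 452.7. Levels are therefore given as log2 of the processed signal minus the 75th percentile of the same array. Replicate spots of 202 probes gave an SD of 0.19 for a difference between 2 arrays, which covers technical noise on the array only.

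The probes of Havcr1 and Lcn2 are shown because the results turn on them and because the 2 Havcr1 probes disagreed. Each is 60 bases long and is printed in the orientation of the array design. The Havcr1 probe A_51_P371745 lies within 60 bases of the mm9 genome, on chromosome 11 from 46569677 to 46569736. The other Havcr1 probe, A_51_P371740, spans 4788 bases of genome from 46587247 to 46592034 and thus crosses an intron. The Lcn2 probe lies on chromosome 2 between 32241037 and 32241281, a span of 245 bases that also crosses an intron.
Havcr1 A_51_P371745: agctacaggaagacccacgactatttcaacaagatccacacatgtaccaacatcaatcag
Havcr1 A_51_P371740: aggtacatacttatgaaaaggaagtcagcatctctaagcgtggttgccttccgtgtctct
Lcn2 A_51_P510156: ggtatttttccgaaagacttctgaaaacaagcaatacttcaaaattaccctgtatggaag

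Injury in WT kidneys was the first comparison, and it asks how far each marker stood above its sham level. Of the 9 markers, by the brightest probe of each, 8 exceeded sham 2-fold or more and 0 were lower, and the median difference was 3.08 on the log2 scale. Over all 16655 genes compared, the median was -0.01, and 14.7% were higher and 14.9% lower by that much. By probe, 9 of 10 were higher and 0 lower, against 15.2% and 14.5% of all 30434 probes compared. Lcn2 had the largest difference and Vim the smallest, and by its second probe Havcr1 was next to Lcn2. On the NLRC5-/- arrays, 7 of the 9 were higher by at least 2-fold and 0 were lower, with a median of 1.42. Over 17025 genes, 4.93% were higher and 4.22% lower on those arrays, with a median of 0.02. By probe, 8 of 10 were higher and 0 lower, against 4.46% and 4.37% of 31440 probes. The count on the NLRC5-/- arrays was 3 with each of the 2 planned normexp background corrections and 5 without scaling. With those normexp corrections the medians over the markers were 0.82 and 0.84, against 0.63 and 0.61 over all named genes. The NLRC5-/- sham array was the array of female pattern, so in every NLRC5-/- response sex and injury cannot be told apart. In these whole kidneys, fewer cells of a type and less RNA per cell cannot be told apart.

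**Figure D1:**
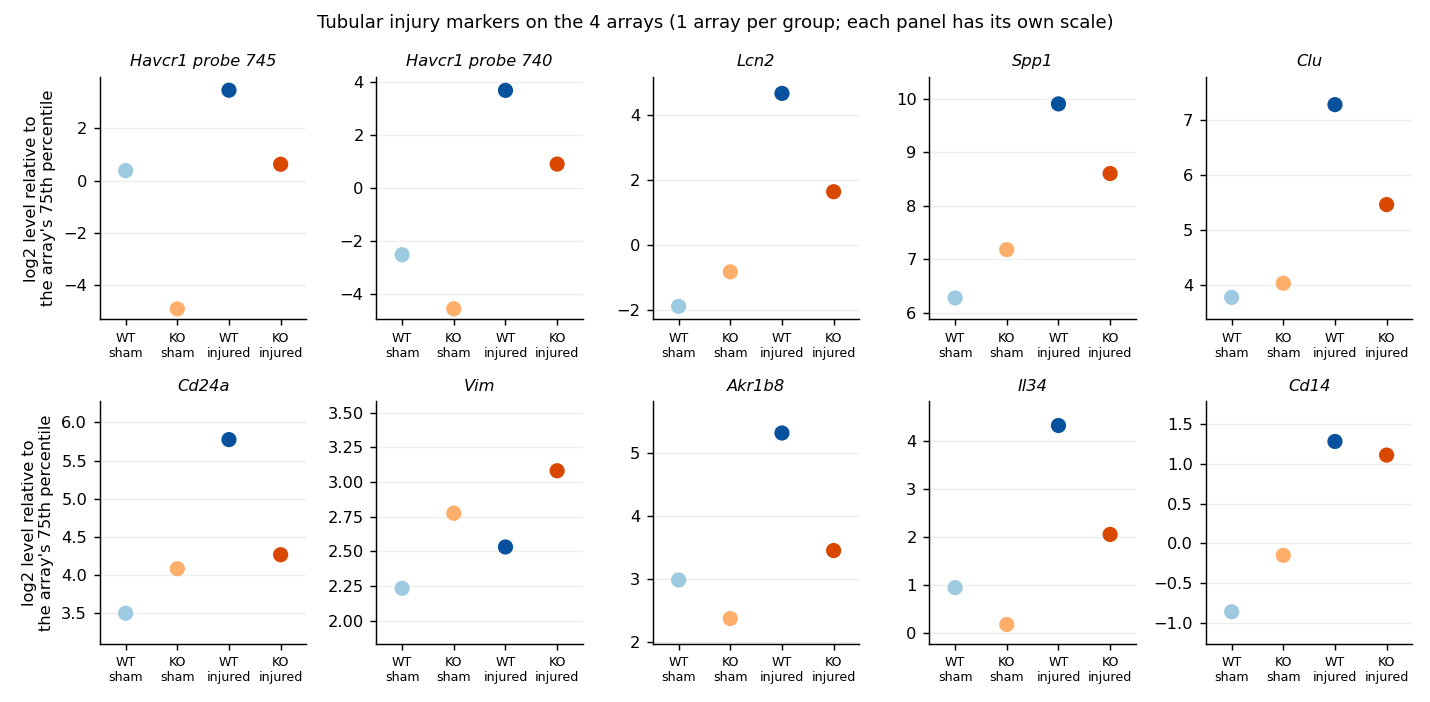
Levels of the 10 probes well above background on all 4 arrays, as log2 of the processed signal relative to the array's 75th percentile; each point is 1 array, KO stands for NLRC5-/-, the Havcr1 panels carry the last digits of the probe names, and there are no error bars because each group had 1 array. Each panel has its own scale, and in 9 of 10 panels the WT injured array is highest, and the exception is Vim.

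Havcr1 encodes a receptor for phosphatidylserine that lets tubule cells take up dying neighbours. Its brightest probe, A_51_P371745, read 0.38, -4.91, 3.46 and 0.63, from signals of 582, 15.1, 1945 and 545 units. The second probe, A_51_P371740, read -2.53, -4.57, 3.67 and 0.89, from signals of 77.1, 19.0, 2254 and 653 units. In both probes the WT injured array was highest, the NLRC5-/- injured array second and the NLRC5-/- sham array lowest. The probes parted on the WT sham array, where the brightest probe lay near the level of the NLRC5-/- injured array and the second well under it.

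After injury Havcr1 was 8.44-fold higher in WT by the brightest probe and 73.8-fold higher by the second. In NLRC5-/- kidneys the probes gave 46.3-fold and 44.1-fold, or 5.53 and 5.46 on the log2 scale. The difference between the responses, NLRC5-/- minus WT, was thus 2.46 by the brightest probe and -0.74 by the second, so its sign depended on the probe. The NLRC5-/- sham signals were close to the lowest signal well above background on that array, 9.56 units. With normexp background correction fitted without spots marked in signal or background, an alternative chosen after seeing the data, the NLRC5-/- responses were 3.42 and 3.49 and the difference between the responses was 0.60 and -1.77. With normexp on all spots the NLRC5-/- responses were 3.24 and 3.25. The file describes the brightest probe as designed on an mRNA of the BALB/c strain, while these mice are C57BL/6.

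Lcn2 encodes a lipocalin that binds iron-carrying siderophores. It read -1.89, -0.83, 4.65 and 1.63, from signals of 120, 254, 4431 and 1091 units. Both injured arrays lay above both sham arrays, and the WT injured array stood apart from the rest. Lcn2 was 93.3-fold higher after injury in WT and 5.51-fold higher in NLRC5-/- kidneys, a difference between the responses of -4.08. Its receptor genes stood closer to their sham levels. Slc22a17 differed by -0.67 in WT and -0.05 in NLRC5-/- kidneys by its brightest probe, and by -1.20 and -0.22 by its other probe. Lrp2, which encodes the proximal tubule endocytic receptor megalin, differed by -1.02 and 0.16 by its brightest probe. Its other probes, also well above background on all arrays, ran from -2.78 to -0.92 in WT. In NLRC5-/- kidneys they ran from -0.89 to 0.21, so the sign there depended on the probe.

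Spp1 encodes osteopontin, a secreted matrix protein that binds integrins and CD44. It was the member with 10 replicate spots per array, of which 8 to 10 were used. Spp1 read 6.28, 7.18, 9.90 and 8.60, and no spot was saturated. The SD between its spots on an array was 0.04 to 0.11 on the log2 scale, smaller than any difference between its arrays. Spp1 was 12.4-fold higher after injury in WT and 2.68-fold higher in NLRC5-/- kidneys. Its receptor gene Cd44 read -2.78, -2.88, 0.10 and -1.50, so that it too was higher in both injured kidneys, by 2.89 and 1.39. By their brightest probes, the integrin subunit genes Itgav, Itgb1, Itgb3 and Itgb5 differed by 1.15, 0.62, 0.33 and 0.03 in WT. In NLRC5-/- kidneys the same 4 genes differed by 0.12, -0.42, -0.37 and 0.48. Another Itgb1 probe, also well above background on all arrays, differed by 1.81 in WT and 0.25 in NLRC5-/- kidneys. The other Itgav probes ran from 0.52 to 2.47 in WT and from -0.70 to 0.51 in NLRC5-/- kidneys. For both genes the sign in NLRC5-/- kidneys thus depended on the probe.

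Clu encodes clusterin, a secreted chaperone of misfolded protein. It read 3.77, 4.03, 7.28 and 5.46, with both sham arrays within 0.26 of each other and both injured arrays above them. Clu was 11.3-fold higher after injury in WT and 2.69-fold higher in NLRC5-/- kidneys. Among genes of clusterin receptors, Vldlr differed by -0.41 and 0.09 by its brightest probe, and by -1.33 and -0.71 by its other probe. Trem2, a receptor of macrophages, differed by 1.32 and 0.68 by its brightest probe. The brightest Lrp8 probe was well above background on the WT injured array alone and was at least 6.97-fold higher there than in WT sham. Of its other 2 probes, 1 cleared background on the same array and 1 on the NLRC5-/- sham array.

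Cd24a encodes a small surface protein anchored by a lipid and found on immature and repairing tubule cells. It read 3.50, 4.08, 5.78 and 4.27, so that the WT injured array stood above the other 3, which lay within 0.77 of each other. Cd24a was 4.84-fold higher after injury in WT and 1.13-fold higher in NLRC5-/- kidneys. The latter difference, 0.18 on the log2 scale, was no larger than the technical SD of 0.19. Siglecg, whose product binds the CD24 protein on leukocytes, differed by 0.78 and 0.16.

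Vim encodes vimentin, the intermediate filament of mesenchymal cells that dedifferentiated tubule cells also make. It read 2.23, 2.77, 2.53 and 3.08 and was 1.23-fold higher after injury in WT and 1.24-fold higher in NLRC5-/- kidneys. These were among the smallest differences of any member. Both NLRC5-/- arrays lay above both WT arrays, a pattern of no other member. Nes and Des, genes of related filaments, differed by 0.18 and -0.52 in WT and by 0.05 and -0.15 in NLRC5-/- kidneys. Gfap and Prph were not well above background on any array.

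Akr1b8 encodes an aldo-keto reductase that reduces reactive aldehydes. It read 2.98, 2.37, 5.31 and 3.45 and was 5.03-fold higher after injury in WT and 2.11-fold higher in NLRC5-/- kidneys. Its relatives did not share the pattern of the WT arrays. Akr1b3, the aldose reductase gene, read 5.73, 3.32, 3.29 and 3.37, so the WT sham array stood above the other 3. Akr1b7 differed by -1.24 in WT and -0.89 in NLRC5-/- kidneys, and Akr1b10 by -1.28 and 0.24.

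Il34 encodes a cytokine made by tubule cells that signals to macrophages through the receptor CSF1R. It read 0.95, 0.19, 4.33 and 2.06 and was 10.4-fold higher after injury in WT and 3.67-fold higher in NLRC5-/- kidneys. Csf1, the gene of the other ligand of that receptor, read -0.89, -0.16, 2.15 and 1.17 and was higher by 3.04 and 1.33. The receptor gene Csf1r read 0.42, 0.58, -0.74 and 0.83, lowest where both ligand genes were highest. Sdc1, which encodes a surface proteoglycan that also binds IL-34, was higher by 1.75 and 0.44. Ptprz1 differed by 1.15 and 0.26 by its brightest probe, which read 9.44, 9.93, 10.58 and 10.19. Its other 3 probes read -4.35 or lower on every array. They were not well above background on all arrays, and 1 of them had a lower value in WT injured than in WT sham. Whether the brightest probe reads Ptprz1 RNA was not tested.

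Cd14 encodes a co-receptor for bacterial lipopolysaccharide found on macrophages and on injured tubule cells. It read -0.85, -0.15, 1.28 and 1.11, with both injured arrays above both sham arrays and close to each other. Cd14 was 4.38-fold higher after injury in WT and 2.38-fold higher in NLRC5-/- kidneys. The genes that act with it differed less. Tlr4 differed by -0.52 and -0.41, Ly96 by 0.37 and 0.18, Tlr2 by 0.34 and 0.20, Myd88 by 0.63 and 0.47, and Ticam1 by -0.27 and -0.08. Lbp, the gene of the plasma protein that loads lipopolysaccharide onto CD14, differed by -1.18 and -0.67.

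**Figure D2:**
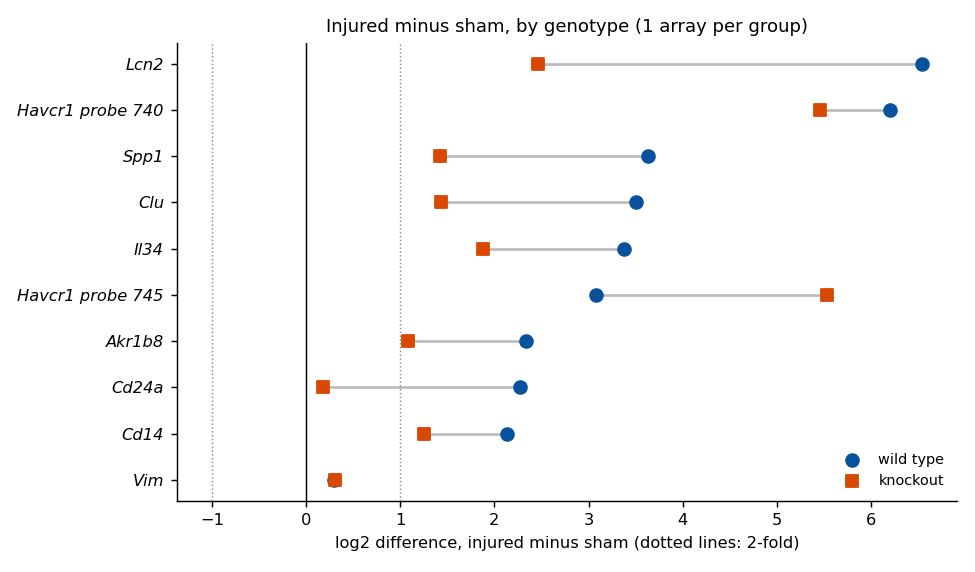
Log2 difference between the injured and the sham array for each probe, in wild type (circles) and knockout, meaning NLRC5-/- (squares); dotted lines mark 2-fold, and each point compares 1 array with 1 array. Lcn2 runs from 6.54 in wild type to 2.46 in knockout, Vim is at 0.30 and 0.31, and the brightest Havcr1 probe lies the other way, at 3.08 and 5.53.

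Over the partners and relatives of the members as a whole, a list of 34 genes, 29 could be compared in WT. Of these 8 were higher and 6 lower at the 2-fold threshold, against 14.7% and 14.9% of all genes, and the median was 0.33. In NLRC5-/- kidneys 28 could be compared and 3 were higher and 0 lower, against 4.93% and 4.22% of all genes. The median of the partners and relatives there was 0.17. The largest of them on the NLRC5-/- arrays was Timd2, a relative of Havcr1, which read 2.05, -2.89, 4.05 and 1.504 by its brightest probe. Another Timd2 probe read 0.07, -3.83, 3.65 and 0.83. Both Timd2 probes were, like those of Havcr1, lowest on the NLRC5-/- sham array. Whether the Havcr1 and Timd2 probes read each other's transcript was not tested. The other relatives stood apart: Havcr2 differed by 0.42 and 0.19, and Timd4 was not well above background on any array.

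Injured kidneys of the 2 genotypes were compared next, to ask how the markers stood in injured NLRC5-/- kidneys. Of the 9 markers, 7 were lower by at least 2-fold in the NLRC5-/- kidney and 0 were higher, with a median of -1.82. Over 16726 genes, 8.12% were lower and 11.2% higher, with a median of 0.04. By probe, 8 of 10 were lower and 0 higher, against 8.12% and 10.7% of 30667 probes. The largest difference was that of Lcn2, which was 8.11-fold lower. Havcr1 was 7.13-fold lower by its brightest probe and 6.89-fold lower by the second, so the probes that disagreed on the responses gave nearly the same value here. Il34 was 4.81-fold lower, Akr1b8 3.64-fold, Clu 3.52-fold, Cd24a 2.85-fold and Spp1 2.47-fold. Cd14, at -0.17, differed by less than the technical SD, and Vim was higher by 0.55. In 9 of the 10 probes the order was WT injured, NLRC5-/- injured, then both sham arrays.

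Scaling between the arrays entered these values, because the WT injured array was the dimmest. Without any scaling the median over all genes was 0.94 between the injured arrays and -1.16 between the WT arrays. The median over the members without scaling was -0.82 between the injured arrays, and 8 of 10 probes still had a lower raw signal in the NLRC5-/- kidney. Without scaling 3 of the 9 markers were lower by at least 2-fold. In 2 alternatives the injured difference of Spp1 was under 2-fold with scaling kept: it was -0.56 with quantile normalization and -0.45 in the authors' deposited table. With the added normexp alternative the median over the members was -1.40 against -0.37 over all genes, and Cd14 stood at 0.08.

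**Figure D3:**
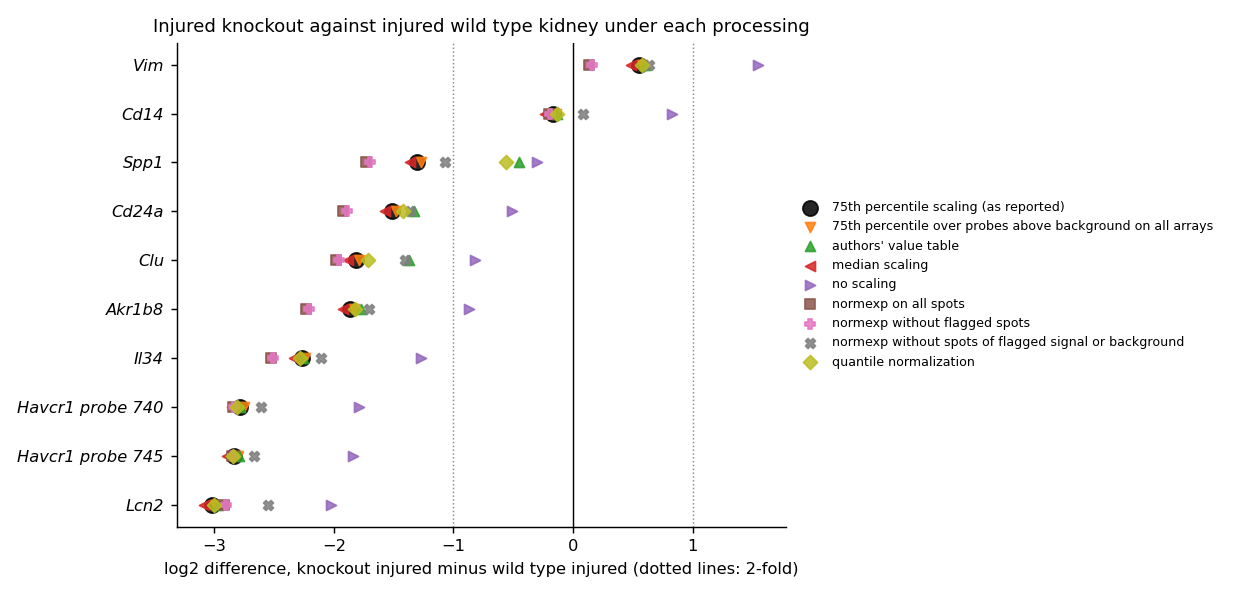
Log2 difference between the injured knockout (NLRC5-/-) and the injured wild type array for each probe, under the processing used in the text (large black circles) and 8 alternatives; dotted lines mark 2-fold. Lcn2 lies between -3.08 and -2.02 and Il34 between -2.53 and -1.27 in all of them, while Cd14 lies on both sides of 0, from -0.23 to 0.83.

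Sham kidneys of the 2 genotypes gave smaller differences for most members. Of the 9 markers, 1 was higher and 1 lower at the 2-fold threshold, and the median was 0.54. Over 16976 genes, 5.55% were higher and 3.64% lower, with a median of 0.05. By probe, 1 of 10 was higher and 2 were lower, against 6.32% and 3.71% of 31294 probes. The marker that was lower was Havcr1, by -5.29 with its brightest probe and -2.04 with the second, and by -3.27 and -0.84 with the added normexp alternative. The marker that was higher was Lcn2, by 1.06, which was under 2-fold with median scaling, quantile normalization and normexp and in the authors' deposited table. The other 7 lay between -0.77, for Il34, and 0.90, for Spp1. As the NLRC5-/- sham array was the array of female pattern, sex and genotype cannot be told apart in these values.

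**Figure D4:**
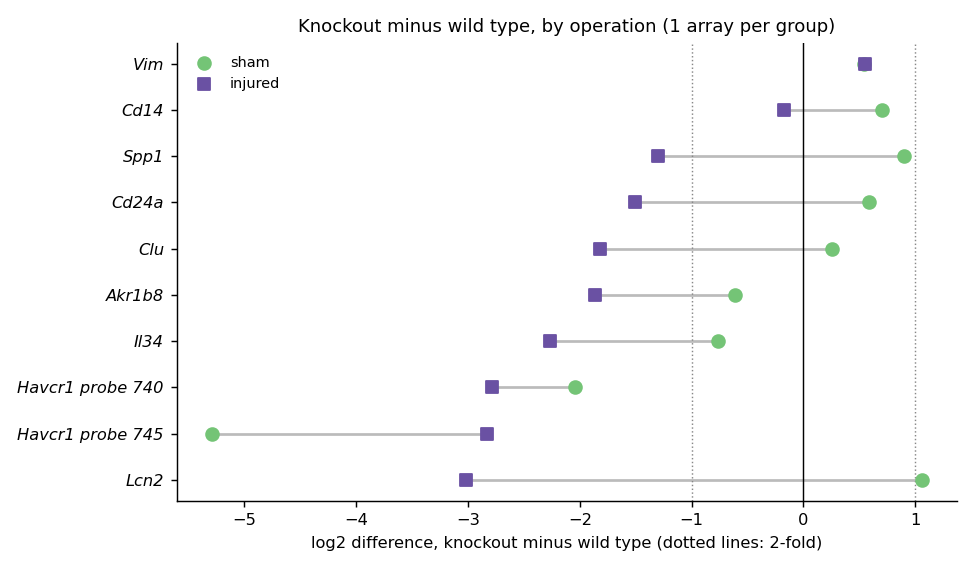
Log2 difference between the knockout (NLRC5-/-) and the wild type array for each probe, in sham (circles) and injured kidneys (squares); dotted lines mark 2-fold, and each point compares 1 array with 1 array. Most probes lie between the dotted lines in sham kidneys, and most lie below -1 in injured kidneys. Clu, the marker nearest to 0 in sham kidneys, is at 0.26 and -1.82, while both Havcr1 probes are below -1 in sham and in injured kidneys.

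The difference between the injury responses combined all 4 arrays. It was lower by at least 2-fold in NLRC5-/- kidneys for 6 of the 9 markers and higher for 1, Havcr1 by its brightest probe, with a median of -1.50. Over 17377 genes, 11.9% had a lower and 12.3% a higher value, with a median of -0.02. By probe, 6 of 10 were lower and 1 was higher, against 12.6% and 11.5% of 32197 probes. The 6 markers were Lcn2 at -4.08, Spp1 at -2.20, Cd24a at -2.09, Clu at -2.07, Il34 at -1.50 and Akr1b8 at -1.25. Cd14 stood at -0.88 and Vim at 0.01. As the NLRC5-/- sham array enters each of these values, the injured NLRC5-/- array was also set against the WT sham array, an alternative chosen after seeing the data. The median was then 1.11, with 5 of 9 markers higher by at least 2-fold. These stand in place of the NLRC5-/- response, with its median of 1.42 and count of 7, and not of the difference between responses. The comparison crosses genotype and slide, so injury, genotype and slide cannot be told apart in it. Its share over all genes was not counted.

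The additive limma fit over the 4 arrays, with genotype and treatment as terms, had 1 residual degree of freedom. Its error is the difference between the responses, so a real difference in response widens it. In that fit 0 of 16549 genes passed a Benjamini-Hochberg adjusted p of 0.05 for injury (0.0% called), with 857 genes higher and 1015 lower at an unadjusted p under 0.05. Havcr1 had an injury effect of 4.31 (SE 0.70) and Lcn2 of 4.50 (SE 1.12), each with a limma adjusted p of 0.43. Cd24a and Vim had limma adjusted p values of 0.448 and 0.586, and the other members 0.43. For genotype 0 genes passed (0.0% called), with 565 higher and 346 lower at an unadjusted p under 0.05, and the members had limma adjusted p values of 0.768 to 0.941. The injury count was 702 in a limma fit without the NLRC5-/- injured array, which also left out genotype as a term and set 1 injured array against 2 sham arrays. It was 1108 with the added normexp alternative. The genotype count was 191 with the latter. With 1 sample per group, the p-values rest on the spread among these 4 samples.

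A list of 32 other genes linked to kidney injury or to injured tubule cells gives the setting of the members. In WT 22 were higher and 3 lower after injury at the 2-fold threshold, against 14.7% and 14.9% of all genes. The median of the list was 2.29. In NLRC5-/- kidneys 31 could be compared and 12 were higher and 1 lower, against 4.93% and 4.22% of all genes. Their list median there was 0.67. Between the injured kidneys 20 were lower and 4 higher in NLRC5-/-, against 8.12% and 11.2% of all genes, and the list median was -1.45. The keratin gene Krt20 was higher by 7.64 in WT and 4.94 in NLRC5-/- kidneys, and Sox9, which encodes a transcription factor of regenerating tubule cells, by 5.62 and 2.11. Keratin genes Krt8 and Krt18, which pair in simple epithelia, were higher by 2.65 and 2.63 in WT and by 0.99 and 0.70 in NLRC5-/- kidneys.

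Some of these genes passed the 2-fold threshold upwards after injury in WT but stayed within 2-fold of sham in NLRC5-/- kidneys, as Cd24a did. Anxa2, a membrane-binding annexin gene, was higher by 3.08 and 0.20, the lipid droplet gene Plin2 by 3.20 and 0.67, and the galectin gene Lgals3 by 2.02 and 0.30. The cell cycle inhibitor gene Cdkn1a differed by 3.34 in WT and -0.96 in NLRC5-/- kidneys. Others stood about as far above their own sham level in both genotypes, among them Timp1, a protease inhibitor gene, at 4.17 and 3.50. The chemokine gene Cxcl1 stood at 4.46 and 3.92. The fibrinogen genes Fgb and Fgg stood at 3.11 and 2.87 in WT and 3.50 and 2.64 in NLRC5-/- kidneys. Between the injured kidneys these genes were all lower in NLRC5-/-. Timp1 differed there by -0.71, Cxcl1 by -1.35, Fgb by -1.22 and Fgg by -1.60. Between the sham kidneys the differences were -0.04, -0.80, -1.60 and -1.38 in the same order. Egf, made by the thick ascending limb and distal tubule, ran the other way, at -6.25 and -1.62. Ccl2, a monocyte chemokine gene, was higher in NLRC5-/- kidneys, at 0.38 in WT and 1.87.

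**Figure D5:**
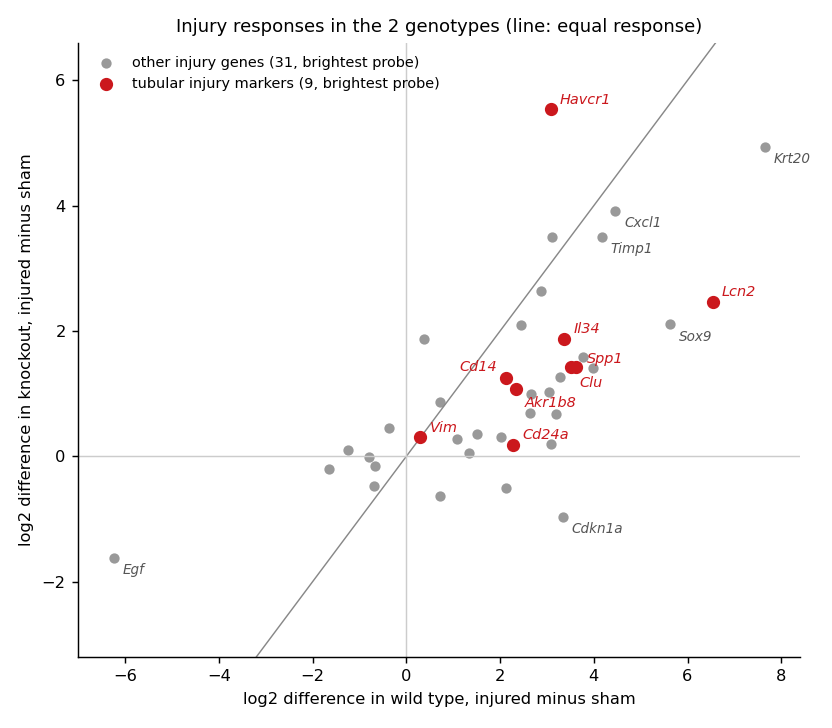
Injury response in knockout (NLRC5-/-, vertical axis) against wild type (horizontal axis), each as the log2 difference between the injured and the sham array, for the 9 markers (red, named) and 31 other injury genes (grey); the line marks equal responses. Points of both kinds lie mostly below the line at the right, such as Lcn2 at 6.54 and 2.46 and Sox9 at 5.62 and 2.11. Havcr1, by its brightest probe, lies above the line. Its second probe, not plotted, had responses of 6.21 in wild type and 5.46 in knockout, which is below the line.

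Markers of several cell types moved with these values. Of 10 proximal tubule markers 7 passed the 2-fold threshold downwards after injury in WT, against 14.9% of all genes. The median of the 10 was -1.87, against a median of 0.08 in NLRC5-/- kidneys. Their summed level, which the brightest gene dominates, was 1252, 983, 1342 and 1330. The macrophage list, relevant to Cd14, Spp1 and Csf1r, had 10 of 11 genes well above background on all arrays, the exception being Mrc1 on the WT injured array. Its summed level was 12.6, 16.9, 8.88 and 16.5, lowest on the array where 9 of 10 member probes were highest. Between the injured kidneys 7 macrophage genes were higher and 1 was lower in NLRC5-/- at the 2-fold threshold, against 11.2% and 8.12% of all genes.

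Neutrophils also make Lcn2. The summed level of 9 neutrophil markers was 4.57, 6.61, 12.0 and 3.04. It was highest on the same array as Lcn2 but lowest on the NLRC5-/- injured array. Of the 9, S100a8 and S100a9 alone were well above background on all arrays. Csf3r, Cxcr2, Mmp8 and Ltf failed to clear it on some arrays, Ltf on both injured ones. In WT 5 could be compared after injury, of which 4 were higher at the 2-fold threshold and 1 was below 0. The share higher over all genes was 14.7%. S100a8 and S100a9 were higher by 1.20 and 1.45 after injury in WT and stood at -1.25 and -1.10 in NLRC5-/- kidneys, where Lcn2 was higher by 2.46. The neutrophil granule genes Mmp9, Ngp and Camp were not well above background on any array. The summed level of 8 fibroblast and pericyte markers was 42.5, 35.3, 48.5 and 110.1, and Vim too had its highest level on the NLRC5-/- injured array. All 5 urothelium markers passed the 2-fold threshold downwards after injury in WT, against 14.9% of all genes. The median of the 5 was -4.63 there and -0.80 in NLRC5-/- kidneys. Upk1b, Upk2 and Upk3a were not well above background on the WT injured array. The summed level of the 5 was 4.41, 1.49, 0.854 and 1.11, so the WT sham array stood above the other arrays. In sham kidneys 4 of the 5 were lower in NLRC5-/- at that threshold, against 3.64% of all genes. Between the injured kidneys 5 of 6 endothelium markers and 3 of 4 podocyte markers were higher in NLRC5-/- at that threshold. The share over all genes was 11.2%. The part of these cells in the members' values was not tested.

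Genes whose pattern over the 4 arrays was most like that of each member were found among 13880 genes well above background on every array. The measure was the root mean square difference between profiles, each centred on its own mean. For Havcr1 they were Timd2, at 0.58, and Tsen34, at 1.16, the loosest matches of any member. For Lcn2 the nearest was Sox9 at 0.49, and for Spp1 they were Zgrf1 at 0.19 and Insyn1 at 0.20. Plaur (0.11) and Mthfd1l (0.16) were nearest to Clu, Id1 and Slc25a29 (0.05 each) to Cd24a, and Septin11 and Mtmr7 (0.02 each) to Vim. Tmem158 (0.10) and Cyp3a13 (0.13) were nearest to Akr1b8, Eps8l3 (0.15) and Ccn1 (0.23) to Il34, and Slc49a4 and Fanca (0.07 each) to Cd14. With 4 arrays these values are descriptions of likeness only.

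Promoters of the members were searched for 3 motifs. The RefSeq table of the GRCm38.p6 build held 8 promoters for 5 of the 9 markers, namely Havcr1, Lcn2, Spp1, Vim and Akr1b8. The AP-1 motif TGANTCA was searched on both strands in the 250 bases before each start and occurred in 0 of the 8, against 6.75% of 32851 promoters. The STAT motif TTCNNNGAA occurred in 0 of the 8, against 7.02%. A core NF-kB motif occurred in 1, that of Vim, 223 bases before its start, against 4.11%. With 8 promoters these counts lie near the shares over all promoters, and a match or its absence describes these letters in this window only.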

How the data were processed

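Spot intensity values in the deposited scanner files were background-subtracted within each array, per the file headers. The headers name Agilent Feature Extraction 10.7.3.1, whereas the submitters' processing notes name version 9.1. The authors also deposited log2 values of these arrays, used here as an alternative. How those were normalized is not given in the sources used here. Column medians ran from 5.91 to 5.93, and genes did not appear to be centred.

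Controls and outlier spots were dropped and the remaining spots averaged per probe. Levels are log2 processed intensity relative to the array's 75th percentile. The brightest of a gene's probes represented it in counts. Probes were named by RefSeq accession (27649), symbol (5584), synonym (471) or the file's own name (1144), and 6294 stayed unnamed. A difference was counted at 2-fold where the probe was well above background on an array of the comparison. Where it was not so on the other array, counts and medians still used the plain difference. Values given as "at least" used the bound against that array's lowest signal well above background. The number of arrays limits the precision. limma 3.58.1 in R 4.3.3 fitted genotype and treatment as additive terms and was checked on simulated data, with p-values adjusted by the Benjamini-Hochberg method. Alternatives covered background correction, scaling, probe choice, the fold threshold, filters and leaving out arrays.

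Genes named are all 9 markers, their partners and relatives, other injury genes, the 2 most similar profiles per marker, and selected cell type markers. The markers and lists were chosen with earlier results of these data known. Not every listed gene is described, and 1 similar profile is not reported here.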

Additional observations from a re-analysis of the deposited data

Results flagged for a closer look

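In 5 of the 10 probes the difference between NLRC5-/- and WT had opposite signs in sham and injured kidneys. With 1 array per group, the change of sign was not tested. The share of all probes with such a change was not counted, so 5 of 10 cannot be set against the whole array. Lcn2 stood at 1.06 in sham and -3.02 in injured kidneys. Spp1 stood at 0.90 and -1.30, Clu at 0.26 and -1.82, and Cd24a at 0.58 and -1.51. Cd14 stood at 0.71 and -0.17, and the latter value is smaller than the technical SD of 0.19. In 0 of the 10 probes did the injury response have opposite signs in the 2 genotypes, and the share over all probes was not counted here either.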

How the results depend on the processing

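No summary value of the members changed sign under any alternative run, and 43 of 50 single values kept their sign in all settings. The exceptions were the second Havcr1 probe's and Cd14's differences between responses, Cd14 between injured kidneys, Cd24a in injured NLRC5-/- kidneys, and 3 values of Vim. For injury in WT the median was 2.82 with normexp on all spots, 2.83 without flagged spots and 2.82 with the added normexp. It was 2.70 in the authors' table, 3.37 as the mean over probes and 1.74 without scaling, where the count was 5. For injury in NLRC5-/- kidneys the count was 3 with either planned normexp fit and 2 at 4-fold. The median was 0.82 and 0.84 with those normexp fits, against 0.63 and 0.61 over all named genes. It was 1.06 without scaling, against -0.29 over all named genes, and 1.11 against WT sham. Between sham kidneys 3 markers were lower and 3 higher at 1.5-fold. Between injured kidneys the count was 3 at 4-fold and 3 without scaling, and the median was -1.37 in the authors' table, -1.40 with the added normexp and -0.82 without scaling. The median difference between responses was -1.89 and -1.87 with the planned normexp fits and -0.52 without scaling. The limma injury count was 4424, 4351 and 1108 and the genotype count 101, 107 and 191 with normexp on all spots, without flagged spots and as added. Leaving out each array, together with the second term of the fit, gave 0 to 702 genes for injury and 0 for genotype. On the NLRC5-/- injured array 4 spots lay over 100 units below their local background, the lowest at -11069, and the planned normexp fits gave it a background of -225.2 and -209.3, against -6.71 to -1.25 elsewhere. No paired analysis was possible because each group had 1 array and the labels share no replicate numbers. Levels near the lowest signal above background, such as Havcr1 in NLRC5-/- sham, are the least certain.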
